A study of Homo sapiens with 18 samples.

Results

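The WNT ligands, their receptors and the modulators of WNT signalling were followed across 3 human melanoma cell lines with and without overexpression of MAFG, a small MAF transcription factor. They comprise 55 of the 19986 protein-coding genes, and of the 58870 genes in all, in the count table. Members were picked by gene symbol (the WNT, FZD, SFRP1 to SFRP5, DKK1 to DKK4, LRP5, LRP6, ROR1 and ROR2 symbols plus 14 named regulators). The rule itself uses no measured value, but it was chosen with earlier results of these data known. By role they were 4 ligands of the WNT5A type (WNT4, WNT5A, WNT5B and WNT11), 9 ligands known mainly for canonical signalling, 6 other ligands, 10 Frizzled receptors, 2 LRP co-receptors, 4 receptors of the WNT5A type, 10 secreted inhibitors, 5 genes of the beta-catenin core and 5 feedback genes.

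WM164, SKMel28 and A375 are established human melanoma lines. Each was transduced with a lentivirus carrying a blasticidin resistance gene, in which the EF1α promoter drove either GFP or a MAFG open reading frame with a Myc-DDK tag, so GFP and MAFG cells both carried the vector and its resistance gene. RNA-seq was done on 3 libraries per condition, 6 conditions and 18 libraries in all. The labels do not say whether the 3 libraries came from separate cultures, so p-values measure the spread between these libraries, which may be technical. RNA was taken from whole cultures, so fewer cells expressing a gene and less RNA per cell cannot be told apart.

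WNT proteins are secreted lipid-modified ligands. In canonical signalling a WNT binds a Frizzled receptor with LRP5 or LRP6, beta-catenin (encoded by CTNNB1) escapes destruction by the AXIN complex, and with a TCF or LEF factor it switches on targets that include the feedback inhibitors AXIN2, NKD1, RNF43 and ZNRF3. WNT5A-type ligands act largely without beta-catenin, through ROR1, ROR2, RYK and PTK7, and in melanoma WNT5A is known for its link to invasive, dedifferentiated cells, whereas beta-catenin works with MITF in the melanocytic lineage. One ligand can act in either way depending on the receptors present, so the roles above are a convention.

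Library depth ranged from 20122172 to 39025042 counted reads. MAFG itself, in CPM (reads per 1000000 counted reads, scaled by TMM over the 18 libraries), was at 25.8 ± 2.91 in GFP and 53.1 ± 4.59 in MAFG cells of WM164 (SD, n = 3 libraries), at 24.1 ± 3.47 and 37.3 ± 1.54 in SKMel28 and at 27.0 ± 4.98 and 47.3 ± 9.24 in A375, where the groups did not overlap but edgeR's adjusted p was 0.0655. Of 7 melanocytic markers, 6 in WM164 and 7 in SKMel28 were above a mean of 1 CPM in GFP cells. In A375 there were 2, and MLANA and TYR were at 0 counts in all 6 libraries, so these defining markers were not detected there. The summed melanocytic markers were at 4483 to 4826 CPM in GFP and 2416 to 2559 CPM in MAFG libraries of WM164, 4558 to 4823 and 3817 to 4064 in SKMel28, and 36.0 to 42.1 and 119 to 172 in A375. Most of the lower sum in SKMel28 was that of PMEL, at 1697 ± 126 CPM with GFP and 1072 ± 79.3 with MAFG. MITF (648 and 564 CPM) and TYR (170 and 144) were lower there too, TYRP1 was higher (57.8 and 72.5), and the groups of MLANA, DCT and SOX10 overlapped. In A375 the higher sum was that of SOX10, at 8.85 ± 2.35 CPM with GFP and 114 ± 24.5 with MAFG, while MITF was at 28.6 ± 1.346 and 27.4 ± 6.17 CPM. AXL and NGFR, markers of dedifferentiated cells, summed to 8.61 to 11.0 and 45.5 to 51.7 CPM in WM164 and to 10.3 to 14.4 and 85.5 to 100.5 CPM in SKMel28, and to 617 to 665 and 546 to 683 CPM in A375. Summed fibroblast markers were at 19.8 to 20.2 CPM in GFP and 10.5 to 11.5 in MAFG libraries of WM164, at 11.0 to 12.3 and 18.3 to 21.3 in SKMel28, and at 3.04 to 5.22 and 4.74 to 5.79 in A375. LUM made up most of them in WM164 (17.9 and 8.96 CPM) and SKMel28 (11.6 and 19.9 CPM). Keratinocyte, endothelial and leukocyte markers were at or below 1.05 CPM. The part of these shifts in the WNT values below was not tested.

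A first question was which parts of the pathway each line transcribed. To compare levels between genes, the deposited TPM (transcripts per 1000000, which divide by transcript length) were used. The mean TPM over 18 libraries was at least 1 for 21 of the 55 members. CTNNB1 stood highest with a mean of 134 TPM, followed by TCF7L2 (39.96), a TCF factor that carries beta-catenin to its targets, RYK (32.2), LRP5 (29.96) and SFRP1 (21.7). At the other end 8 members (WNT1, WNT3A, WNT8A, WNT9B, FZD10, SFRP5, DKK4 and WIF1) had 0 counts in all 18 libraries, which allows at most 3 counts per library, and 7 more never reached 0.1 TPM (WNT2, WNT4, WNT8B, WNT10A, WNT11, SFRP2 and NKD2). Receptors were thus transcribed at levels well above those of ligands: in GFP cells of WM164 the Frizzled genes summed to 28.4 ± 4.52 TPM and the 19 ligands to far less, 1.63 ± 0.11 for the WNT5A type, 0.71 ± 0.14 for the canonical and 0.29 ± 0.13 for the others.

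**Figure D1:**
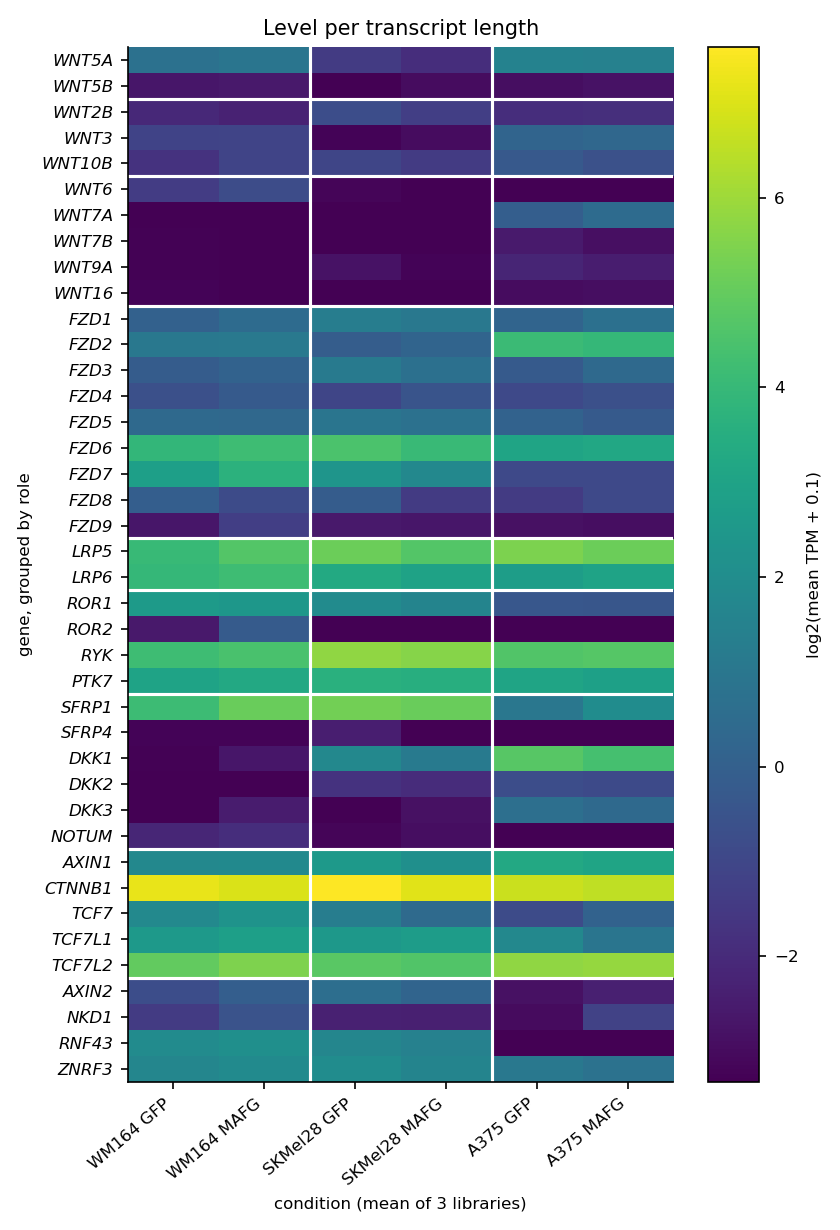
Mean TPM of 3 libraries in each of the 6 conditions (columns) for the 40 members that reached 0.1 TPM in any library, on a log2(TPM + 0.1) colour scale, with white lines between roles and between cell lines. CTNNB1 is brightest in all conditions, FZD2 and DKK1 are brightest in A375, FZD7 and SFRP1 are dimmest there, and RNF43 is at 0 in A375.

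Between lines, the mix of ligands differed. WNT5A-type ligands made up 61.8% ± 4.88 of summed ligand TPM in GFP cells of WM164, 24.6% ± 1.21 in SKMel28 and 48.3% ± 3.17 in A375, and WNT5A was the main one of them in each line. WNT5A was at 16.6, 15.2 and 15.8 CPM in the 3 GFP libraries of WM164, at 0.466, 0.935 and 0.621 CPM in SKMel28, and at 19.7, 19.6 and 16.0 CPM in A375. SKMel28 stood apart from both other lines, with a level lower than that of WM164 by 4.60 ± 0.20 on the log2 scale (± SE, adjusted p = 5.74e-14), while WM164 and A375 did not differ beyond their spread (log2 difference -0.22 ± 0.14, adjusted p = 0.169). WNT3, a canonical ligand, had a like order, with mean levels of 4.14 ± 0.916 CPM in A375, 1.98 ± 0.421 in WM164 and 0.0279 ± 0.0253 in SKMel28, where the 3 GFP libraries held 2 reads in all. WNT7A was a transcript of A375 alone among the GFP cells, with 143, 164 and 165 counts against 0 in each GFP library of the other lines, at least 39.3-fold higher than in WM164 and at least 36.4-fold higher than in SKMel28 when 0 is set to 3 counts per library. WNT6 was the counterpart in WM164, with 38, 17 and 13 counts against 1 read in the SKMel28 and 0 in the A375 GFP libraries. WNT10B and WNT2B, both canonical, were detected in all 3 lines at means of 0.745 to 1.94 and 0.681 to 1.56 CPM.

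Several ligand genes lie side by side in the genome, and the neighbours were not transcribed alike. WNT3 (chromosome 17, minus strand) and WNT9B (plus strand) are 46 bases apart within chr17:46762506-46886730 of GRCh38, and WNT9B had 0 counts throughout while WNT3 reached 238 counts in an A375 library. WNT10B and WNT1 are 6586 bases apart within chr12:48965340-48982620, and WNT10B reached 101 counts where WNT1 had 0. WNT6 and WNT10A are 6618 bases apart within chr2:218859805-218899581, and WNT10A reached 6 counts at most against 46 for WNT6. WNT9A and WNT3A are 59065 bases apart within chr1:227918656-228061271, with at most 34 and 0 counts.

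The leading Frizzled receptor also differed, FZD6 in WM164 and SKMel28 and FZD2 in A375. FZD6 made up 52.4% ± 2.24 of summed Frizzled TPM in GFP cells of WM164 and 62.7% ± 2.64 in SKMel28, with FZD7 next at 25.03% ± 0.57 and 14.1% ± 0.80. In A375 FZD2 held 58.7% ± 3.96 and FZD7 1.51% ± 0.41. In CPM, the level of FZD7 went down from WM164 (46.1, 48.6 and 48.5) to SKMel28 (21.7, 25.4 and 22.6) to A375 (1.46, 2.45 and 2.43), and all neighbours in this order differed (log2 differences of 1.04 ± 0.13 and 3.46 ± 0.16, adjusted p = 1.10e-06 and 7.16e-14). FZD2 was instead highest in A375, at 42.8 ± 3.08 CPM, against 6.92 ± 0.65 in WM164 and 2.05 ± 1.01 in SKMel28. Like FZD7, it was higher in WM164 than in SKMel28 (log2 difference 1.73 ± 0.23). ROR1, a kinase-like receptor of the WNT5A type, followed the order of FZD7 with 46.0 ± 0.70, 16.3 ± 0.839 and 4.20 ± 0.85 CPM. RYK was highest in SKMel28, at 138 ± 5.16 CPM against 70.7 ± 2.59 in WM164 and 72.3 ± 4.13 in A375. The co-receptor LRP6 was higher in WM164 (152 ± 10.6 CPM) than in SKMel28 (68.8 ± 1.54) and A375 (61.1 ± 4.47), whereas LRP5 lay between 53.1 and 65.6 CPM, lower in WM164 than in SKMel28 (log2 difference -0.26 ± 0.10, adjusted p = 0.0365) and A375 (-0.30 ± 0.10, adjusted p = 0.0112).

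The secreted inhibitors also divided the lines. SFRP1, which binds WNT proteins directly, made up 99.3% ± 0.09 of summed inhibitor TPM in GFP cells of WM164 and 91.5% ± 2.47 in SKMel28 but 6.19% ± 0.46 in A375, where DKK1, which blocks LRP5 and LRP6, held 87.3% ± 1.16. DKK1 was at 46.6, 51.3 and 44.5 CPM in the GFP libraries of A375, at 6.33, 4.08 and 6.49 in SKMel28, and at 1 read over the 3 GFP libraries of WM164. SFRP1 was at 208 ± 8.88 CPM in SKMel28, 140 ± 6.07 in WM164 and 10.5 ± 0.598 in A375. DKK3 had 62, 56 and 75 counts in A375 and 0 in the GFP libraries of the other lines, a level at least 16.1-fold higher than in WM164 and at least 14.9-fold higher than in SKMel28.

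**Figure D2:**
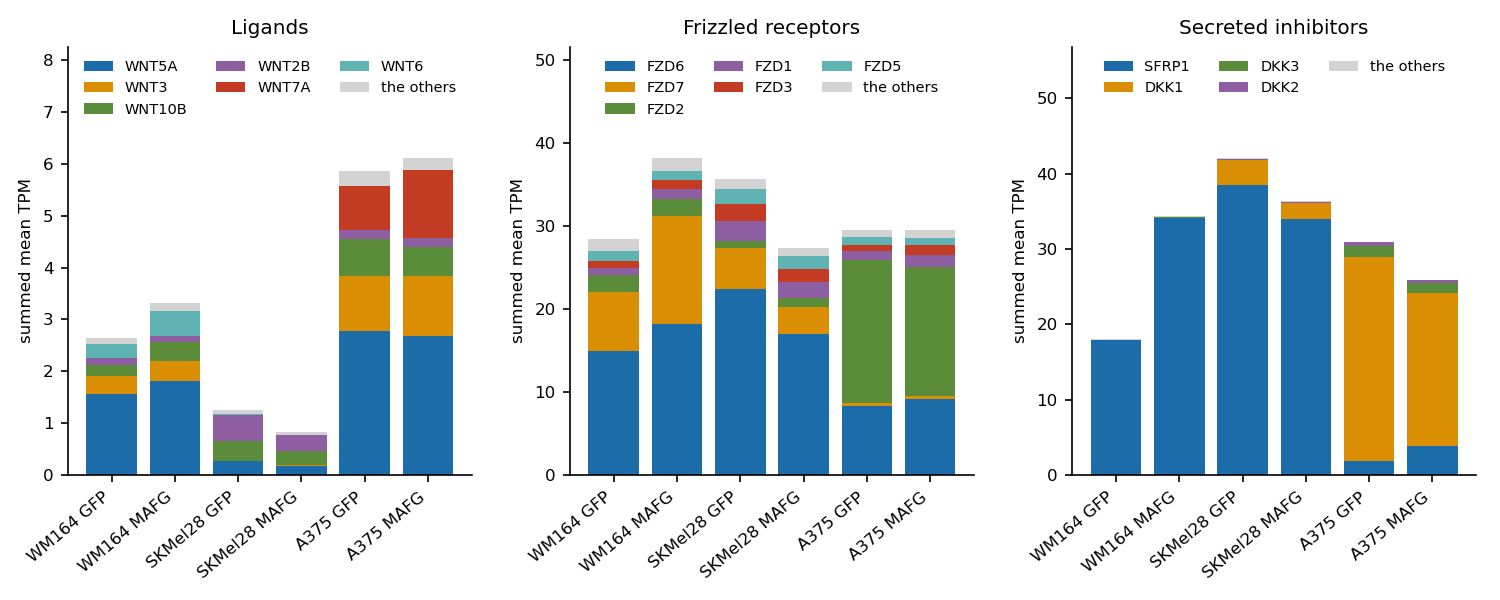
Stacked bars of the mean TPM of ligands, Frizzled receptors and secreted inhibitors in the 6 conditions, with named genes in colour and the others of each role in grey. Inhibitor transcripts are SFRP1 in WM164 and SKMel28 and mostly DKK1 in A375, and the Frizzled bars are mostly FZD6 in WM164 and SKMel28 and FZD2 in A375.

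In the beta-catenin core, CTNNB1 was at 441 ± 16.4 CPM in WM164, 414 ± 12.6 in SKMel28 and 217 ± 6.41 in A375, and the first pair did not differ beyond their spread (log2 difference 0.09 ± 0.08, adjusted p = 0.376). The mean levels of TCF7 and TCF7L1 were lowest in A375 (1.11 ± 0.40 and 11.97 ± 1.01 CPM), whereas those of TCF7L2 and the scaffold AXIN1 were highest there (102 ± 2.44 and 38.9 ± 4.22 CPM). Feedback genes differed too. RNF43, a ubiquitin ligase that removes Frizzled receptors from the surface, had 696, 799 and 635 counts in the GFP libraries of WM164, 468, 322 and 382 in SKMel28 and 0 in all 6 libraries of A375. This was at least 314-fold above A375 for WM164 and at least 183-fold for SKMel28. AXIN2 was at 2.62 ± 0.639 CPM in WM164, 4.92 ± 0.899 in SKMel28 and 0.0789 ± 0.0937 in A375, and NKD1 was at 6.33 ± 0.928 CPM in WM164 against 0.57 ± 0.0322 in SKMel28 and 0.56 ± 0.107 in A375. ZNRF3, the paralogue of RNF43, was still at 14.5 ± 1.498 CPM in A375.

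RNF43 is shown by the stretch before its start as an example of a member with 0 counts in a single line. The bases lie at chr17:58417596-58417784 of GRCh38.p14 (RefSeq, minus strand), outside the gene as GENCODE release 44 draws it, and the capitals mark the 1 match to the core of the MAF recognition element (TGCTGA, here read as TCAGCA on the other strand), from base 85 to base 80 before the RefSeq start. RefSeq also gives another start of RNF43, inside that gene span. The stretch before it (chr17:58402722-58402971), not shown, held further matches to this core and an AP-1 site (TGANTCA).
RNF43: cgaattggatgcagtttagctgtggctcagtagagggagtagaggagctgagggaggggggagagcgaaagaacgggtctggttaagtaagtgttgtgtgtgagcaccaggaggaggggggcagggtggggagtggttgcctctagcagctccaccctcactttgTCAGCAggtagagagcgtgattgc

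In all, 14 of 36 tested members were called between GFP cells of WM164 and SKMel28 (an adjusted p no higher than 0.05 with a log2 difference above 1 in size), beside 28.7% of all genes. Between WM164 and A375 it was 24 of 36, beside 46.7%, and between SKMel28 and A375 18 of 36, beside 43.8%. Of the called members 12 were higher and 2 lower in WM164 than in SKMel28, 15 higher and 9 lower in WM164 than in A375, and 10 higher and 8 lower in SKMel28 than in A375. The shares of all genes in each direction were not counted, so these directions cannot be set against those of all genes. On the TPM scales the median of all genes itself moved, by -0.42 and -0.54 (log2, at a pseudocount of 1 and of 0.1) between GFP cells of WM164 and SKMel28, by -0.35 and -0.46 between WM164 and A375, and by 0.14 and 0.16 with MAFG in WM164, -0.14 and -0.17 in SKMel28 and -0.10 and -0.12 in A375, so TPM levels of 2 conditions are to be read relative to these shifts.

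MAFG was then compared with GFP within each line, which asks how the pathway responded. In WM164 cells 31 members could be tested, and 9 rose while 3 fell (adjusted p no higher than 0.05 by edgeR's quasi-likelihood F test, adjusted by Benjamini and Hochberg's method over every tested gene), beside 16.2% of all genes that rose and 15.6% that fell. The median log2 fold change was 0.18 over the members and -0.00 over all genes. Members that rose were the receptors FZD3, FZD7, FZD9, LRP5 and ROR2, the inhibitor SFRP1, the factors TCF7 and TCF7L2 and the feedback gene NKD1. FZD8, ROR1 and CTNNB1 fell. With the added limit of a log2 fold change above 1 in size, 3 of 31 were called (ROR2, FZD9 and FZD8), beside 6.94% of all genes.

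**Figure D3:**
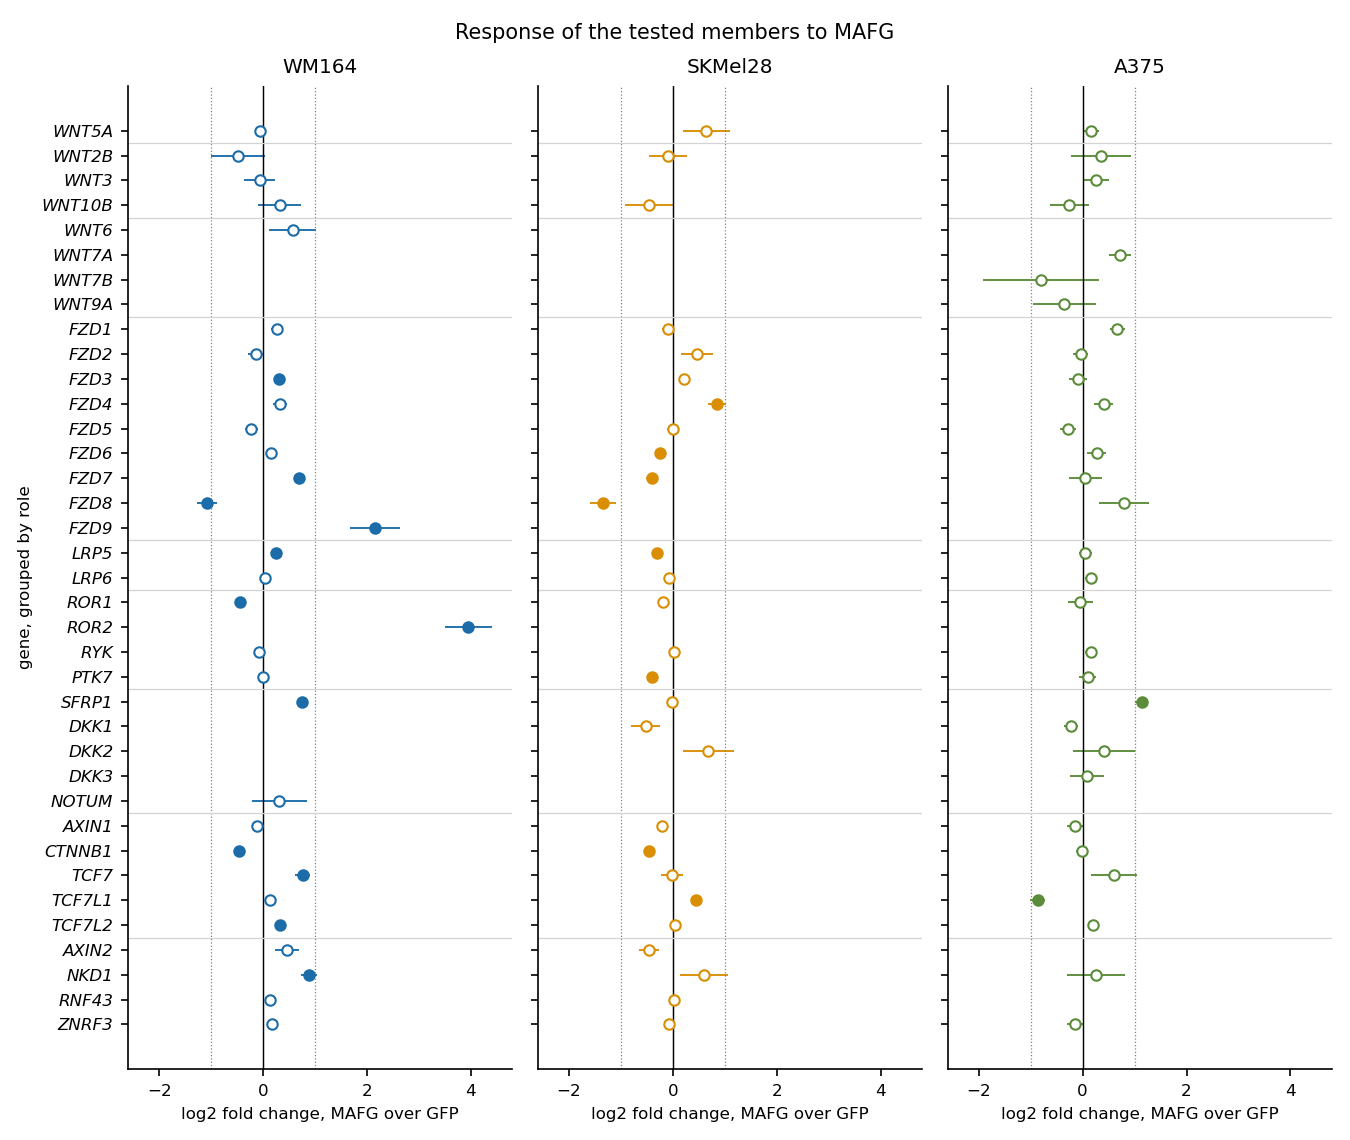
Log2 fold change of MAFG over GFP cells (horizontal, bars ± SE, n = 3 libraries per condition) for the members tested in at least 1 line, with filled circles at an adjusted p of 0.05 or less, dotted lines at -1 and 1, and no circle where a gene was not tested in that line. FZD8 and CTNNB1 lie left of 0 with filled circles in WM164 and SKMel28, FZD7 and LRP5 lie on opposite sides in these lines, and SFRP1 and TCF7L1 carry the filled circles in A375.

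No ligand passed the test in WM164. WNT5A was at 16.6, 15.2 and 15.8 CPM with GFP and at 14.7, 16.7 and 14.2 CPM with MAFG, overlapping groups with a log2 fold change of -0.06 ± 0.10 (adjusted p = 0.687). WNT6 (log2 fold change 0.57 ± 0.45), WNT10B (0.32 ± 0.41), WNT3 (-0.06 ± 0.29) and WNT2B (-0.49 ± 0.52) had errors about as large as their differences or larger. WNT11 and WNT5B were too low for the test. WNT11 had 2, 1 and 0 counts with GFP and 5, 3 and 6 with MAFG, a ratio of 4.43 with a 95% counting interval of 1.24 to 24.0, and WNT5B had 0, 0 and 3 against 5, 3 and 2, a ratio of 3.16 with an interval of 0.814 to 17.9. Such intervals cover counting error only. WNT5A-type ligands made up 58.3% ± 1.74 of ligand TPM with MAFG, against 61.8% ± 4.88 with GFP.

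The receptors of the WNT5A type moved apart in WM164. ROR2, a receptor kinase for WNT5A (ENSG00000169071.15, chromosome 9 from 91563091 to 91950228 on the minus strand of GRCh38), had 4, 2 and 20 counts with GFP and 136, 157 and 142 with MAFG, that is 0.143, 0.0664 and 0.79 against 4.76, 5.80 and 4.39 CPM. All MAFG libraries were above all GFP libraries, the log2 fold change was 3.95 ± 0.46 (adjusted p = 2.65e-06), and GFP replicate 3 held most of the GFP reads: without it the log2 fold change was 5.53. On a per-length scale ROR2 stayed a minor receptor, at 0.07 ± 0.05 TPM with GFP and 0.78 ± 0.14 with MAFG. Its relative ROR1 was at 46.3, 45.2 and 46.5 CPM with GFP and fell to 35.2, 33.2 and 32.9 CPM with MAFG, with no overlap and a log2 fold change of -0.45 ± 0.07 (adjusted p = 7.72e-05). In TPM ROR1 was at 6.08 ± 0.67 and 5.33 ± 0.34, and by limma on log2(TPM + 1) the fall was lost, with a log2 difference of -0.16 (adjusted p = 0.434). RYK (log2 fold change -0.07 ± 0.06, adjusted p = 0.415) and PTK7 (0.00 ± 0.07, adjusted p = 0.996) did not pass the test.

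Among Frizzled receptors of WM164, FZD7, which serves both branches of the pathway, rose from 46.1, 48.6 and 48.5 to 80.2, 78.3 and 73.3 CPM. The groups were well apart, with a log2 fold change of 0.69 ± 0.06 (adjusted p = 1.34e-07), and FZD7 went from 25.03% ± 0.57 to 34.0% ± 1.59 of summed Frizzled TPM. FZD8 (ENSG00000177283.7, chromosome 10 from 35638247 to 35642296 on the minus strand) was at 6.14, 6.10 and 6.08 CPM with GFP and at 3.11, 3.40 and 2.16 CPM with MAFG. It fell by 1.09 on the log2 scale (SE 0.19, adjusted p = 2.60e-04), and without MAFG replicate 3 by 0.92, which ends the call at the fold limit but not the test. FZD9 (ENSG00000188763.4, chromosome 7 from 73433778 to 73436120, plus strand) had 5, 7 and 8 counts with GFP and 34, 31 and 30 with MAFG, a log2 fold change of 2.15 ± 0.49 (adjusted p = 0.00227). Its level stayed low, at 1.09 ± 0.141 CPM with MAFG, and in one model of all 18 libraries its adjusted p was 0.202. FZD3 rose by a smaller amount, from 17.7 ± 1.47 to 21.9 ± 0.954 CPM (log2 fold change 0.30 ± 0.09, adjusted p = 0.0152), and FZD6, the most abundant Frizzled gene, had a log2 fold change of 0.15 ± 0.06 that missed the threshold (adjusted p = 0.0775). LRP5 rose from 53.1 ± 4.35 to 62.9 ± 2.67 CPM (log2 fold change 0.24 ± 0.07, adjusted p = 0.0142), and LRP6 was at 152 ± 10.6 and 157 CPM. Both small rises, of FZD3 and LRP5, lost the test in the model of 18 libraries (adjusted p = 0.106 and 0.12). FZD3 also lost it without GFP replicate 1, GFP replicate 3 or MAFG replicate 2 (adjusted p = 0.0647, 0.0594 and 0.0767) and LRP5 without GFP replicate 3 or MAFG replicate 2 (adjusted p = 0.0971 and 0.0798).

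FZD8 and ROR2, the members called with the largest fall and the largest rise in any line, are shown by the 250 bases before their start (RefSeq, GRCh38.p14, both on the minus strand), FZD8 at chr10:35642297-35642546 and ROR2 at chr9:91950229-91950478. Capitals mark a match to any of 6 short motifs searched on both strands: a TCF/LEF site (CTTTGAT), the E-boxes CACGTG and CATGTG that MITF-type factors can bind, an AP-1 site (TGANTCA), a MAF core (TGCTGA) and a TATA box (TATAAA).
FZD8: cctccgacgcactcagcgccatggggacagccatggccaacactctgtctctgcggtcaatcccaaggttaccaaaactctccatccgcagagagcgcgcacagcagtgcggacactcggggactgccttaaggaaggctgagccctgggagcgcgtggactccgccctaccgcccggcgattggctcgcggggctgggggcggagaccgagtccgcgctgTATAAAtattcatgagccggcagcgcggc
ROR2: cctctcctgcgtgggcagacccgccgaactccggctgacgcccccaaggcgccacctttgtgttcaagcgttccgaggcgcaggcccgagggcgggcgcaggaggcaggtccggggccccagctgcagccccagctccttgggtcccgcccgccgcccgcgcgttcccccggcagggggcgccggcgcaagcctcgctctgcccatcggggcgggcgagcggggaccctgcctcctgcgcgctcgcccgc

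The FZD8 stretch held a TATA box from base 29 to base 24 before the start and no other of the motifs, and the ROR2 stretch held none. RefSeq gave such a stretch for 38 members off chromosome 8, 46 stretches in all, counting alternative starts. A MAF core was in 4 of the 46 (8.7%) and in 14% of 35116 human stretches of the same length, a TATA box in 4 (8.7%) and in 10.7%, CATGTG in 2 (4.35%) and in 9.42%, and an AP-1 site in 1 (2.17%) and in 6.57%. CACGTG and the TCF/LEF letters were in 0 of the 46 and in 6.34% and 2.26% of all. A match is a run of letters and not a bound site, and a missing match says only that these letters are not in this window.

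SFRP1 was the leading secreted inhibitor of WM164 in both conditions. It was at 137, 147 and 136 CPM with GFP and at 238, 252 and 219 CPM with MAFG. The groups were far apart, with a log2 fold change of 0.75 ± 0.06 (adjusted p = 2.46e-08), and SFRP1 went from 17.95 ± 2.58 to 34.1 ± 3.94 TPM. DKK1 had 0, 0 and 1 counts with GFP and 1, 5 and 8 with MAFG, a ratio of 13.3 with a counting interval of 2.02 to 562, and was too low for the main test. NOTUM, an enzyme that strips the lipid from WNT proteins, was at 11 to 14 counts with GFP and 7 to 25 with MAFG.

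In the beta-catenin core of WM164, CTNNB1 was at 426, 458 and 440 CPM with GFP and at 321, 333 and 311 CPM with MAFG. No MAFG library reached the lowest GFP library, and the fall was by 0.46 on the log2 scale (SE 0.05, adjusted p = 2.39e-06). By limma on log2(TPM + 1) the fall no longer passed, with a log2 difference of -0.24 (adjusted p = 0.193). TCF7, a TCF factor that is itself a WNT target, rose from 13.5, 8.53 and 9.09 to 17.8, 16.6 and 18.4 CPM (log2 fold change 0.76 ± 0.14, adjusted p = 3.95e-04), and TCF7L2 rose from 87.9 ± 4.53 to 110 ± 6.02 CPM (0.33 ± 0.06, adjusted p = 4.73e-04). TCF7 was also lost on the TPM scale (0.37, adjusted p = 0.0742). AXIN1 (-0.12 ± 0.09) and TCF7L1 (0.13 ± 0.09) did not pass the test. Of the 4 tested feedback genes, NKD1, which restrains Dishevelled, passed it and the others did not, though all had positive values. NKD1 was at 6.85, 6.87 and 5.25 CPM with GFP and at 14.1, 11.9 and 9.18 with MAFG, a log2 fold change of 0.88 ± 0.16 (adjusted p = 3.05e-04). AXIN2, the best known read-out of beta-catenin activity, was at 3.18, 1.92 and 2.77 CPM with GFP and at 3.60, 3.84 and 3.43 with MAFG. Its groups did not overlap, but the log2 fold change of 0.47 ± 0.23 missed the threshold (adjusted p = 0.138). RNF43 and ZNRF3 were at 0.14 ± 0.09 and 0.18 ± 0.08 on the same scale (adjusted p = 0.268 and 0.101).

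In SKMel28 cells 28 members could be tested, and 2 rose (FZD4 and TCF7L1) while 6 fell (FZD6, FZD7, FZD8, LRP5, PTK7 and CTNNB1), beside 14.6% of all genes that rose and 15.3% that fell. The member median was -0.08 and that of all genes -0.01. FZD8 was called, 1 of 28, beside 4.74% of all genes. No ligand, secreted inhibitor or feedback gene passed the test.

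FZD8 was at 4.20, 4.13 and 3.18 CPM with GFP in SKMel28 and at 1.27, 1.76 and 1.501 CPM with MAFG. The groups did not overlap, and the fall was by 1.34 on the log2 scale (SE 0.25, adjusted p = 7.78e-04). FZD4, a receptor also used by norrin, was the member that rose most, from 3.73, 3.59 and 3.14 to 5.81, 6.64 and 6.46 CPM (log2 fold change 0.85 ± 0.17, adjusted p = 0.00146). FZD7 fell from 21.7, 25.4 and 22.6 to 16.3, 15.7 and 20.7 CPM (-0.40 ± 0.11, adjusted p = 0.0121), with the highest MAFG library within 1 CPM of the lowest GFP library, and lost the test without GFP replicate 2, MAFG replicate 1 or MAFG replicate 2 (adjusted p = 0.0515, 0.0597 and 0.0715). FZD6 fell from 86.6 ± 1.64 to 73.4 ± 5.38 CPM (-0.24 ± 0.06, adjusted p = 0.0105) and lost it without MAFG replicate 1 (adjusted p = 0.0717) and in the model of 18 libraries (0.211). LRP5 fell from 63.0, 61.2 and 66.3 to 53.1, 49.9 and 51.4 CPM (-0.30 ± 0.06, adjusted p = 0.00187), while LRP6 had a log2 fold change of -0.08 ± 0.07.

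Of the WNT5A-type genes of SKMel28, PTK7, a catalytically inactive co-receptor, fell from 39.97, 39.7 and 36.0 to 30.7, 27.3 and 29.6 CPM (log2 fold change -0.40 ± 0.08, adjusted p = 0.00121), and on log2(TPM + 1) the fall was lost (-0.083, adjusted p = 0.584 by limma). ROR1 was at 16.3 ± 0.839 and 14.4 CPM (-0.18 ± 0.10, adjusted p = 0.199), RYK at 138 ± 5.16 and 141 CPM (0.03 ± 0.06), and ROR2 had 0 counts in all 6 libraries. WNT5A had 14, 19 and 18 counts with GFP and 30, 34 and 24 with MAFG, a log2 fold change of 0.65 ± 0.44 (adjusted p = 0.304), and on the TPM scale its mean was at 0.27 ± 0.09 and 0.17 ± 0.09, the opposite direction. CTNNB1 fell from 427, 401 and 415 to 315, 321 and 271 CPM (-0.45 ± 0.07, adjusted p = 8.31e-05). TCF7L1, a mainly repressive TCF factor, rose from 16.4, 18.9 and 19.9 to 23.7, 25.7 and 25.7 CPM (0.44 ± 0.10, adjusted p = 0.00213), a rise that lost the test on log2(TPM + 1) (0.20, adjusted p = 0.217 by limma). SFRP1 was at 208 ± 8.88 and 207 CPM (-0.01 ± 0.06, adjusted p = 0.955), DKK1 at 5.63 ± 1.34 and 3.95 (-0.52 ± 0.27, adjusted p = 0.172), and AXIN2 at 4.92 ± 0.899 and 3.60 (-0.46 ± 0.19, adjusted p = 0.0912).

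In A375 cells 31 members could be tested, and SFRP1 rose while TCF7L1 fell, beside 0.78% of all genes that rose and 0.0634% that fell. SFRP1 was called, 1 of 31, beside 0.665% of all genes. The member median was 0.09 and that of all genes -0.00, and the median SE of the members was 0.18 against 0.10 in WM164 and in SKMel28. MAFG replicate 1 lay apart from MAFG replicates 2 and 3 for some members, such as FZD6 (28.5 against 43.9 and 46.2 CPM) and AXIN1 (45.6 against 32.2 and 28.6). Without this library 4 members passed, with FZD1 and FZD6 gained, and without any other single library 1 passed. Its part in the SE was not tested. SFRP1 was at 11.2, 10.2 and 10.2 CPM with GFP and at 24.7, 21.4 and 23.6 CPM with MAFG, with no overlap and a log2 fold change of 1.14 ± 0.12 (adjusted p = 0.00141). It went from 6.19% ± 0.46 to 14.96% ± 1.55 of summed inhibitor TPM, with DKK1 at 87.3% ± 1.16 and 78.5% ± 0.53. TCF7L1 was at 12.2, 12.8 and 10.9 CPM with GFP and at 6.95, 6.39 and 6.49 with MAFG, a log2 fold change of -0.86 ± 0.14 (adjusted p = 0.0216). By limma on log2(TPM + 1) neither passed, with SFRP1 at 0.74 (adjusted p = 0.455) and TCF7L1 at -0.63 (adjusted p = 0.86). The TCF7L1 groups were well apart in CPM, but the test was lost when any 1 library other than MAFG replicate 1 was left out, at adjusted p from 0.0617 to 0.156.

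Other members of A375 did not pass. FZD1 was at 9.18, 9.40 and 9.32 CPM with GFP and at 17.1, 13.9 and 13.6 with MAFG, groups apart with a log2 fold change of 0.67 ± 0.14 and an adjusted p of 0.0566. FZD1 passed by DESeq2, with no filter on low counts, in the model of 18 libraries and without MAFG replicate 1. WNT7A was at 3.73, 4.46 and 4.60 against 6.62, 8.66 and 5.72 CPM (0.71 ± 0.21, adjusted p = 0.336). FZD8 was at 1.303, 1.20 and 1.59 CPM with GFP and was spread from 0.837 to 3.92 CPM with MAFG (0.80 ± 0.48, adjusted p = 0.970). WNT5A had a log2 fold change of 0.17 ± 0.14, DKK1 of -0.22 ± 0.13, CTNNB1 of -0.02 ± 0.10 and FZD7 of 0.05 ± 0.32, none of which passed the test. ROR2 and RNF43 had 0 counts in all A375 libraries, and AXIN2 had 7, 2 and 0 counts with GFP and 15, 13 and 0 with MAFG.

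**Figure D4:**
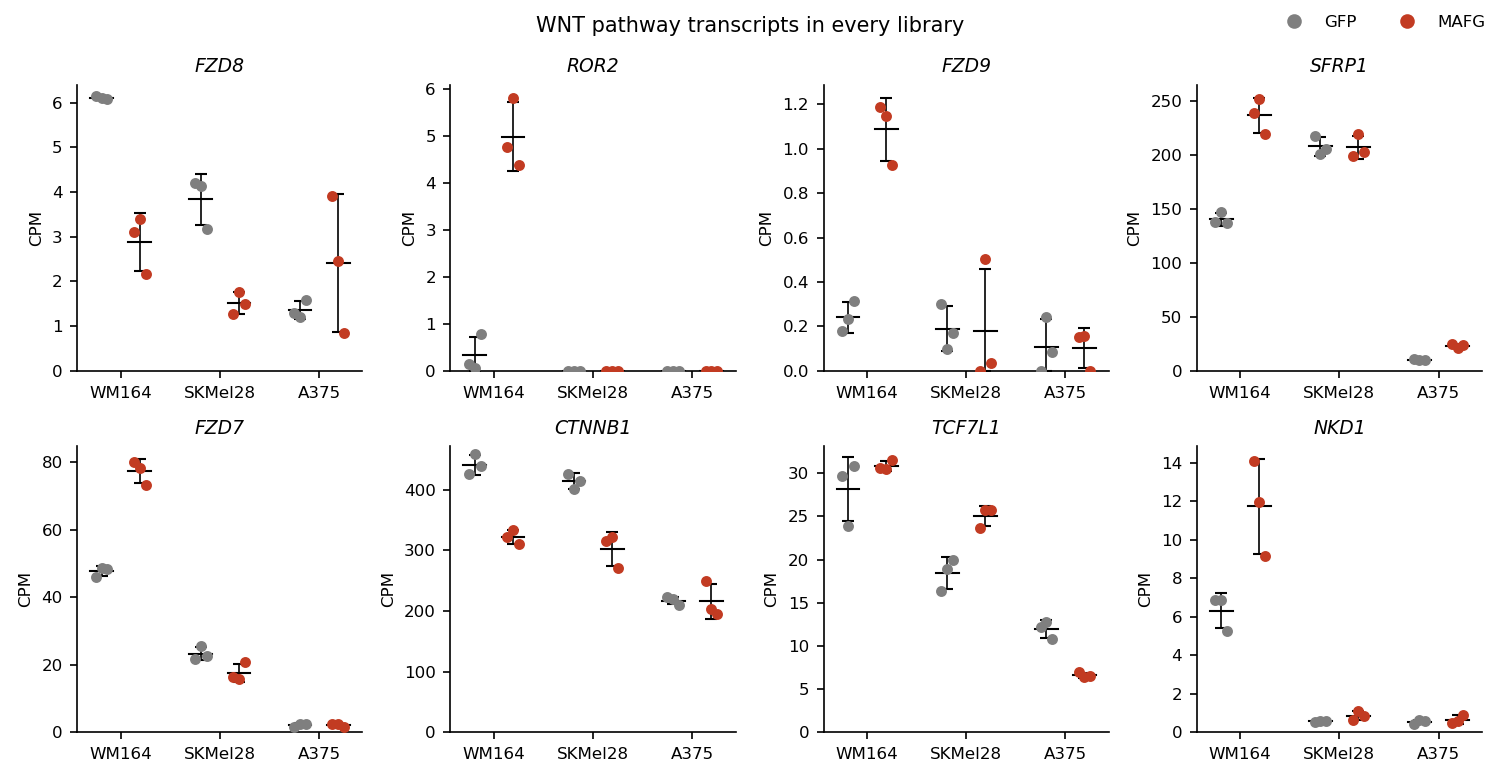
CPM of 8 members in every library, with GFP libraries in grey and MAFG libraries in red for each line, black bars at the mean and error bars of 1 SD (n = 3 libraries), cut at 0. FZD8 and CTNNB1 are lower with MAFG in WM164 and SKMel28, ROR2 is seen in WM164 alone, SFRP1 is higher with MAFG in WM164 and A375, and TCF7L1 is higher with MAFG in SKMel28 and lower in A375.

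Whether a response differed between lines was tested on the difference itself, in one model of all 18 libraries. Against SKMel28, 3 of 36 members responded differently in WM164, beside 13.7% of all genes, and 1 of 36 was past the fold limit, beside 5.1%. FZD7 went up in WM164 and down in SKMel28, a difference of 1.10 ± 0.19 on the log2 scale (adjusted p = 4.02e-04). LRP5 did the same by 0.55 ± 0.14 (adjusted p = 0.0136). SFRP1 differed by 0.76 ± 0.11 (adjusted p = 3.60e-05), since it rose in WM164 and stayed within its error in SKMel28. FZD8 and CTNNB1, lower with MAFG in both lines, had differences of 0.26 ± 0.50 (adjusted p = 0.837) and -0.00 ± 0.12 (adjusted p = 0.9999).

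Against A375, 4 of 36 members differed in WM164, beside 9.21%, with 1 past the fold limit, beside 4.39%. They were FZD8 (-1.90 ± 0.50, adjusted p = 0.0192), CTNNB1 (-0.45 ± 0.12, adjusted p = 0.0197), TCF7L1 (0.99 ± 0.16, adjusted p = 1.90e-04) and SFRP1 (-0.39 ± 0.11, adjusted p = 0.0290). In the comparison of SKMel28 with A375, which shares the A375 libraries with the one before, 5 of 36 differed, beside 9.51%, with 3 past the fold limit, beside 4.2%. They were FZD8 (-2.16 ± 0.52, adjusted p = 0.00981), TCF7L1 (1.2999 ± 0.16, adjusted p = 9.94e-06), SFRP1 (-1.15 ± 0.11, adjusted p = 4.73e-07), FZD1 (-0.78 ± 0.19, adjusted p = 0.00999) and CTNNB1 (-0.44 ± 0.12, adjusted p = 0.0203). WNT5A did not pass in any pair of lines, with differences of -0.74 ± 0.29, -0.24 ± 0.20 and 0.50 ± 0.29 (adjusted p = 0.103, 0.564 and 0.323). The ROR2 difference could not be fitted with a usable error, since ROR2 had 0 counts in SKMel28 and A375.

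FZD8 in A375 was spread most by MAFG replicate 1, and without it the difference of WM164 from A375 was -1.35 (adjusted p = 0.0509) and that of SKMel28 from A375 -1.61 (adjusted p = 0.0255). The SFRP1 difference of WM164 from A375 lost the test without any 1 of 6 libraries (GFP replicate 2 or 3 or MAFG replicate 3 of A375, GFP replicate 2 or MAFG replicate 1 or 3 of WM164), at adjusted p up to 0.0903. CTNNB1 lost it in the WM164 comparison without GFP replicate 2 or MAFG replicate 3 of WM164 (adjusted p = 0.0563 and 0.0584) and in the SKMel28 comparison without GFP replicate 1 or MAFG replicate 3 of SKMel28 (adjusted p = 0.0652 and 0.0679), and FZD8 also without MAFG replicate 3 of WM164 (adjusted p = 0.0608). By limma on log2(TPM + 1) both CTNNB1 differences were lost (-0.094 and -0.34, adjusted p = 0.793 and 0.356), as were those of FZD1 (adjusted p = 0.0671) and of SFRP1 between WM164 and A375 (0.641).

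Genes of the pathway outside the 55 gave the setting for these changes. Of 37 other pathway genes (destruction complex, Dishevelled, co-factors, secretion and R-spondin receptors), 8 rose and 3 fell of 28 tested in WM164 (16.2% and 15.6% of all genes did so) and 6 rose and 10 fell of 28 in SKMel28 (14.6% and 15.3% of all genes). In A375 0 of 25 passed by edgeR (0.78% and 0.0634% of all genes rose and fell), where 4 had an unadjusted p under 0.05 and 1 passed by DESeq2. LEF1, the factor next to TCF7 in function, was at 231 ± 5.69 and 321 ± 13.4 CPM in WM164 (log2 fold change 0.47 ± 0.05, adjusted p = 1.58e-06), at 190 ± 3.96 and 158 ± 5.62 in SKMel28 (-0.27 ± 0.06, adjusted p = 0.00177) and at 16.9 ± 1.06 and 18.4 ± 2.05 in A375 (0.13 ± 0.14). Of the genes past the fold limit, APC2, a relative of the destruction complex scaffold APC, rose in WM164 (1.24 ± 0.15), and in SKMel28 the co-repressor TLE4 rose (2.04 ± 0.47) while its relative TLE2 (-1.45 ± 0.41) and the WNT inhibitor APCDD1 (-2.33 ± 0.57) fell. These SKMel28 genes were low, with GFP and MAFG means of 0.41 and 1.72 CPM for TLE4, 1.59 and 0.58 for TLE2 and 0.92 and 0.18 for APCDD1. Among more abundant TLE genes within the fold limit, TLE1 rose (39.4 to 50.5 CPM), while TLE3 (53.0 to 41.0) and TLE5 (60.2 to 43.5) fell. Of 8 known beta-catenin targets outside the 55, 4 rose and 0 fell of 6 tested in WM164 (median log2 fold change 0.42), 1 rose and 2 fell of 6 in SKMel28 (-0.03), and 0 of 5 passed in A375 by edgeR (0.23), where 3 had an unadjusted p under 0.05 and 2 passed by DESeq2. The shares of all genes are those just given. The lists outside the 55 were chosen with earlier results of these data known, so they are not an independent check. LEF1, APCDD1 and LGR5 belong to both lists, so the LEF1 rise in WM164 and both falls in SKMel28 (LEF1 and APCDD1) are counted in each.

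The planar cell polarity genes, a branch used by WNT5A-type ligands, were all 11 tested in each line. In WM164 4 rose and 4 fell (16.2% and 15.6% of all genes), with CELSR3 past the fold limit (log2 fold change 1.11 ± 0.12), in SKMel28 1 rose and 6 fell (14.6% and 15.3% of all genes), with CELSR1 (-1.71 ± 0.07) and VANGL2 (-1.09 ± 0.16) past it, and in A375 0 passed by edgeR or DESeq2, with 3 at an unadjusted p under 0.05. Their medians were 0.01, -0.35 and 0.16.

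Several members overlap other genes. The labels describe a library kit that does not keep strand and the study's methods one that does, and the use of strand in counting is not given in the sources used here, so reads of such pairs may not be separable: 28 of the 55 have an annotated gene on the opposite strand within their span and 12 on the same strand. Among those named above, CTNNB1 overlaps ULK4, TCF7 overlaps SKP1, ROR1 overlaps ROR1-AS1, WNT5A overlaps WNT5A-AS1, FZD4 overlaps PRSS23 and LRP6 overlaps BCL2L14, whereas FZD1, FZD2, FZD7, FZD9, LRP5, PTK7 and AXIN1 overlap none. FZD8 overlaps ENSG00000287528 on the opposite strand and MIR4683 on the same strand. ROR2 overlaps MIR3910-1 and PAICSP2 on the opposite strand and MIR3910-2 on the same strand. SFRP1 and NKD1 have annotated genes on both strands. Not every overlap is listed here.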

How the data were processed

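Per the labels, RNA of the 3 melanoma lines was sequenced and processed with cutadapt 1.8.1, STAR 2.7.7a and RSEM 1.3.0. The authors deposited gene counts, which were used as deposited, and TPM values, which are per transcript length and sum to 1000000 per library. Whether the TPM came from these counts or from RSEM is not given in the sources used here. For some genes the CPM and TPM scales differed by more than the median shift, as for TCF7 of SKMel28. It was at 4.13 CPM with GFP and 4.07 with MAFG, and at 2.34 and 1.26 TPM. The labels name a kit without strand and the study's methods a stranded kit. Neither the annotation release nor whether counting used strand is given in the sources used here.

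Counts were tested per line with edgeR 4.0.16 (quasi-likelihood, TMM, filterByExpr) in R 4.3.3, and response differences and GFP cells in one model of 18 libraries, with Benjamini-Hochberg adjustment over all tested genes. The limit for passing was an adjusted p of 0.05, and called genes also had a log2 fold change above 1 in size. SE is the log2 fold change over the root of F. Alternatives used DESeq2 1.42.0 and limma 3.58.1. Procedures were tested on simulated data. The number of reads, 20122172 to 39025042 per library, limits low genes, and counting intervals are exact binomial.

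Members and lists were chosen with earlier results of these data known. Named genes were the members by role, those that passed first, and in the other lists those called. Positions are from GENCODE release 44 (GRCh38), and 55 of 55 members matched.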

Additional observations from a re-analysis of the deposited data

Results flagged for a closer look

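For 12 comparisons the response of a member to MAFG differed between 2 lines by the test of the difference itself (edgeR's quasi-likelihood F test, p adjusted by Benjamini and Hochberg's method over 18767 genes, 3 libraries per condition). SFRP1, the secreted inhibitor, differed in each pair of lines, by 0.76 (log2, adjusted p = 3.60e-05) for WM164 minus SKMel28, by -0.39 (adjusted p = 0.0290) for WM164 minus A375 and by -1.15 (adjusted p = 4.73e-07) for SKMel28 minus A375. Its difference for WM164 minus A375 lost the test in several alternatives and changed sign on log2(TPM + 1). FZD7 and LRP5, receptors that moved in opposite directions, differed by 1.10 (adjusted p = 4.02e-04) and 0.55 (adjusted p = 0.0136) for WM164 minus SKMel28.

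A375 stood apart from both other lines for 3 further genes, and the comparisons share the A375 libraries. TCF7L1 differed by 0.99 (adjusted p = 1.90e-04) for WM164 minus A375 and 1.2999 (adjusted p = 9.94e-06) for SKMel28 minus A375. CTNNB1 differed by -0.45 (adjusted p = 0.0197) and -0.44 (adjusted p = 0.0203), and FZD8 by -1.90 (adjusted p = 0.0192) and -2.16 (adjusted p = 0.00981). FZD1, which missed the threshold in each line by the main test (A375 adjusted p = 0.0566), differed by -0.78 (adjusted p = 0.00999) for SKMel28 minus A375. The CTNNB1, FZD8 and FZD1 differences each lost the test in some alternatives.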

How the results depend on the processing

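Of 1688 alternative values of single members, 1562 kept direction and side of the threshold, 67 lost the test, 9 gained it and 50 changed sign. Without the fold limit the counts were 12 in WM164, 8 in SKMel28 and 2 in A375, 3, 4 and 5 for the differences WM164 minus SKMel28, WM164 minus A375 and SKMel28 minus A375, and 22 between GFP cells of WM164 and SKMel28. With at least 10 counts in every library, where fewer genes are tested, 1 was called in WM164 and 2 for WM164 minus A375, and in GFP cells 8 were called and 14 passed for WM164 minus SKMel28, 13 and 20 for WM164 minus A375, and 11 were called for SKMel28 minus A375. DESeq2 called 2 for WM164 minus SKMel28 and 3 for WM164 minus A375, and with no filter 2 and 2 were called. Libraries of GFP and MAFG cells with the same number did not deviate together (correlations from -0.0326 to 0.0120, own number best in 0 of 9). The highest correlations with other numbers were small too, from 0.00722 to 0.0502. With 3 libraries per condition this cannot decide whether a number marks a shared preparation. With that number as a replicate block, 1 passed in A375 and 2 were called for WM164 minus SKMel28. Under the block the test was lost by TCF7L1 in A375 (adjusted p = 0.129), by SFRP1 (0.0542) and FZD8 (0.0795) for WM164 minus A375 and by FZD8 (0.0501) for SKMel28 minus A375, and DKK1 passed under it in SKMel28 and in both WM164 differences.

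On log2(TPM + 1), where FZD3, FZD8, FZD9, NKD1 and ROR2 of WM164 and FZD4 and FZD8 of SKMel28 are not tested and TCF7, CTNNB1 and ROR1 of WM164, PTK7 and TCF7L1 of SKMel28 and SFRP1 and TCF7L1 of A375 lost the test, 0 were called and 4 passed in WM164, 0 were called in SKMel28, 0 were called or passed in A375, 3 were called and 7 passed for WM164 minus SKMel28, 0 were called for WM164 minus A375, 1 was called and 3 passed for SKMel28 minus A375, and in GFP cells 5 were called for WM164 minus SKMel28 and 11 were called and 20 passed for WM164 minus A375. On log2(TPM + 0.1) these were 0 and 4 in WM164, 0 in SKMel28, 0 and 0 in A375, 3 and 5 for WM164 minus SKMel28, 3 passing for SKMel28 minus A375, and 14 and 20 in GFP cells of WM164 minus A375. The median of all genes moved on both, by 0.26 and 0.33 for WM164 minus SKMel28 and 0.21 and 0.26 for WM164 minus A375. Members were also gained on both scales: TCF7 and AXIN1 in SKMel28, AXIN1 and TCF7L2 for WM164 minus SKMel28, FZD7 and LRP5 for WM164 minus A375 and TCF7 for SKMel28 minus A375. On log2(TPM + 1) TCF7 and AXIN2 were gained for WM164 minus SKMel28. TCF7 of SKMel28 was at 2.34 ± 0.52 TPM with GFP and 1.26 ± 0.07 with MAFG, against 4.13 ± 0.51 and 4.07 ± 0.82 CPM.

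Signs changed on the 2 TPM scales, in this order, for WNT5A (0.12, 0.18), RYK (0.24, 0.26) and AXIN1 (0.083, 0.10) in WM164, RYK (-0.15, -0.15), TCF7L2 (-0.17, -0.17) and RNF43 (-0.18, -0.23) in SKMel28, and WNT5A (-0.039, -0.052), LRP5 (-0.29, -0.30) and PTK7 (-0.15, -0.16) in A375, none of which passed the main test, and for SFRP1 WM164 minus A375 (0.15 on log2(TPM + 1)). PTK7 in WM164 was at -0.0032 with DESeq2, -0.00059 with its size factors and -0.0067 with no filter. The cause of these changes was not tested.

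Leaving out 1 library at a time gave 1 to 4 passing in A375, 0 to 2 called and 1 to 5 passing for WM164 minus A375, and 1 to 2 called for WM164 minus SKMel28. Signs changed, over these ranges, for CTNNB1 (-0.11 to 0.037), FZD7 (-0.16 to 0.18), LRP5 (-0.064 to 0.13), NKD1 (-0.055 to 0.46), PTK7 (-0.12 to 0.19) and ROR1 (-0.24 to 0.10) in A375, LRP6 (-0.0065 to 0.091), PTK7 (-0.042 to 0.041) and WNT3 (-0.27 to 0.12) in WM164, and RNF43 (-0.053 to 0.066), RYK (-0.015 to 0.076), SFRP1 (-0.048 to 0.030), TCF7 (-0.15 to 0.14) and TCF7L2 (-0.020 to 0.11) in SKMel28. Depth limits genes under about 10 counts per library.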
